A study of Mus musculus with 6 samples.

Results

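This report describes 38622 peaks of 5-methylcytosine (5mC) that were listed after fibroblasts had spent 3 days in doxycycline. None met a 5mC peak of the starting fibroblasts, or a 5mC or 5-hydroxymethylcytosine (5hmC) peak of the induced pluripotent stem (iPS) cells. They are called day-3-restricted peaks below. They made up 23.3% of the 165869 day-3 5mC peaks (95% Wilson interval 23.1 to 23.5) and 60.8% of the 63472 day-3 5mC peaks found in neither of the other 5mC lists. The members were chosen by the measured peak lists themselves, with any shared base pair counting as a meeting. Their absence from those 3 lists is therefore a condition and not a result. A region missing from a list had no peak called there, and the lists cannot tell an unmodified region from one below the caller's threshold.

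The starting fibroblasts were derived from TSKM-iPS mice and used at passage 4 in feeder medium. The day-3 cells were such fibroblasts, also of passage 4. They were kept for 3 days in embryonic stem (ES) cell medium with doxycycline, so that medium and drug changed together. The part of Tet1 alone was not tested. The iPS cells were a line obtained with Tet1, Sox2, Klf4 and c-Myc, at passage 10 to 15, grown on feeder cells that were removed by brief plating. All had the OG2-GFP/Rosa26-M2rtTA background, which holds the transactivator that doxycycline turns on. DNA was captured with an antibody to either mark. Each stage gave 1 library for each mark, 6 libraries of unknown read depth, so the comparisons below are between single libraries and none carries a test. Intervals cover counting error only, and in bulk DNA a mark on few cells cannot be told apart from a sparse mark on all cells.

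In mammalian DNA, 5mC sits mostly at CpG sites, where DNA methyltransferases write it and copy it at replication. Tet enzymes such as Tet1 oxidise 5mC to 5hmC and on to further forms, and 5hmC is poorly copied when cells divide. 5mC can thus be lost by oxidation, by dilution through replication, or by both. Antibody capture recovers DNA fragments rich in the mark, so a peak reports many modified cytosines in a neighbourhood and not the state of any single CpG.

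The day-3-restricted peaks were weaker and narrower than the rest of their list, as judged by the peak caller's score, which the authors deposited with each peak. Their median score was 69.66 and their quartiles were 57.72 and 91.29, whereas the 127247 other day-3 5mC peaks had a median of 130.79 and quartiles of 82.07 and 232.65. The lowest score in the list was 50.01, and 30.4% of the day-3-restricted peaks scored under 60, against 9.08% of the others. A score of at least 100 was reached by 7428 of them, or 19.2%, against 53.8% of the whole list. Their median width was 754 bp (quartiles 646 and 874), against 951 bp (798 and 1219) for the other peaks. Only 65 of them, 0.168%, were 2 kb or wider, against 5.63% of the others, and together they covered 30.1 Mb. Because the same list gave the members and these values, the values describe the choice and support nothing further.

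Day-3-restricted peaks became scarcer as scores rose. All day-3 5mC peaks were ranked by score and cut into 5 equal groups, from group 1 with the lowest scores to group 5 with the highest. In group 1, with scores from 50.01 to 65.27, 49.0% of the peaks were day-3-restricted. In groups 2, 3 and 4 the shares were 36.8%, 21.2% and 8.13%. In group 5, with scores of 227.65 and over, 453 of 33174 peaks were day-3-restricted, or 1.37%, and 96.4% were also in the fibroblast 5mC list. Most high-scoring day-3 5mC was thus already listed in fibroblasts. Applied to the 42301 best peaks by score from every list, the length of the shortest, the rule chose 6106 peaks. Their median score was 233.27, and most of them were not members in the full lists.

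**Figure D1:**
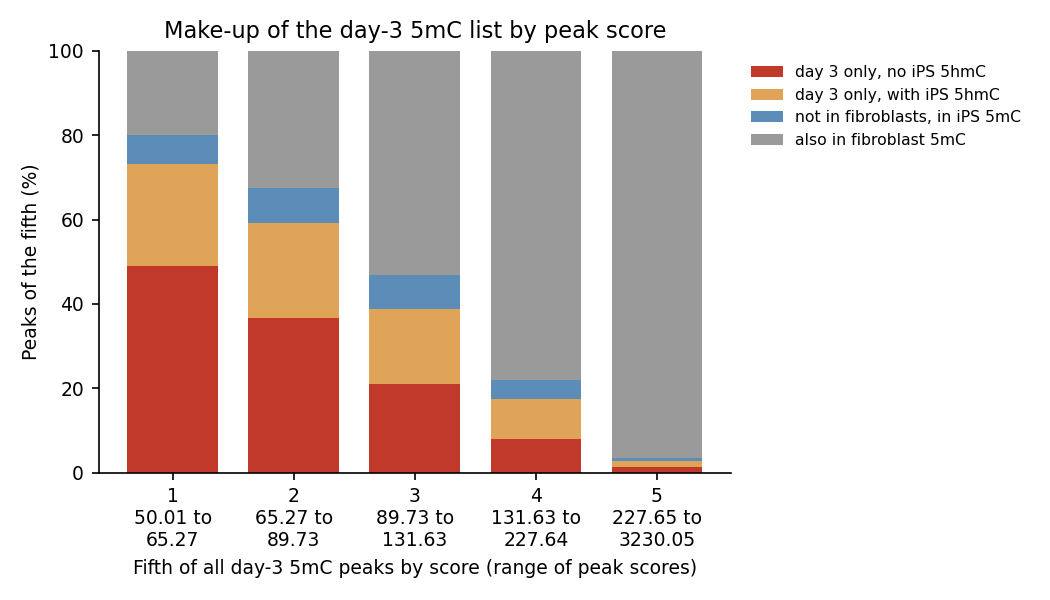
Share of peaks (%, vertical axis) in 5 groups of equal size, made from all day-3 5mC peaks ranked by score (horizontal axis, with the score range of each group), split into 4 classes. The day-3-restricted class, in red at the base, is 49.0% in group 1 and 1.37% in group 5.

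Most day-3-restricted peaks lay more than 1 kb from the peaks that could have removed them, but most also had such a peak within 5 kb. Only 7 members touched a neighbouring peak with no base between them, and 32274 of them, 83.6%, lay more than 500 bp from every peak of the 3 lists. More than 1 kb separated 27629 of them (71.5%) from those lists, and more than 10 kb separated 7408 (19.2%). Within 5 kb of those lists lay 26291 members, and 12331 (31.9%) lay farther away. The distances expected from the density of the lists were not computed. The nearest peak of the 3 lists was iPS 5hmC for 57.4% of the members, fibroblast 5mC for 31.1% and iPS 5mC for 11.5%. The median distance was 3497 bp to iPS 5hmC, 5692 bp to fibroblast 5mC and 11092 bp to iPS 5mC, in the order of the lengths of these lists (174079, 104011 and 61171 peaks).

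At the limit of the rule stood regions that 1 base pair placed on either side. Just inside it, a peak on chromosome 18 from 21440968 to 21441861, with a score of 144.42, directly adjoined an iPS 5hmC peak. The next such members were on chromosome 2 from 31987493 to 31988808, with a score of 141.68, and on chromosome 13 from 55990758 to 55991705, with a score of 123.75. Just outside it, a peak on chromosome 18 from 83145948 to 83147105, with a score of 239.26, shared 1 bp with an iPS 5hmC peak. So did peaks on chromosome 17 from 56596924 to 56597996, scoring 176.13, and on chromosome 6 from 101166114 to 101166582, scoring 99.84. All coordinates are on mm9 and counted from 1.

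The day-3 and fibroblast 5hmC lists took no part in the choice. Of the day-3-restricted peaks, 7171 lay on a day-3 5hmC peak, or 18.6% (18.18 to 18.96), against 28.8% of all day-3 5mC peaks. A fibroblast 5hmC peak was met by 1595 of them, or 4.13% (3.94 to 4.33), against 10.8% of all. Neither 5hmC list reached 30400 members, or 78.7%, so that 5mC at day 3 was the single listed mark there at any stage, and 66.2% of all day-3 5mC peaks likewise met neither 5hmC list. Applied to the 42301 best peaks of every list, the rule chose 6106 peaks with a median score of 233.27. Most of these were not members in the full lists, where 453 members scored 227.65 or more. In this different set 23.4% lay on day-3 5hmC, against 22.4% of all day-3 5mC peaks kept. The shares on fibroblast 5hmC were 10.4% and 13.9%. In the full lists, 5hmC at day 3 without fibroblast 5hmC was found at 6627 members (17.2%), fibroblast 5hmC without day-3 5hmC at 1051 (2.72%), and both at 544 (1.41%). Over all day-3 5mC peaks, 5hmC at day 3 without fibroblast 5hmC was found at 23.1%, fibroblast 5hmC without day-3 5hmC at 5.00% and both at 5.79%.

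The choice itself bears on those shares, because it removed peaks on iPS 5hmC, and the 5hmC lists of the 3 stages overlap: 63.7% of fibroblast and 48.3% of day-3 5hmC peaks met an iPS 5hmC peak. A closer comparison is with the 32376 other day-3 5mC peaks that also lacked iPS 5hmC. There the difference at day 3 was small, with 18.6% of the day-3-restricted peaks and 17.8% of those others (17.4 to 18.2) on day-3 5hmC. For fibroblast 5hmC the shares were 4.13% and 5.72% (5.48 to 5.98). The others scored higher, with a median of 112.76, and weighting them to the scores of the day-3-restricted peaks, over 20 classes of score, gave 13.9% on day-3 5hmC and 5.55% on fibroblast 5hmC. After weighting, the share on day-3 5hmC was thus higher for the day-3-restricted peaks than for the rest without iPS 5hmC. The share on fibroblast 5hmC was lower over all scores together, but its order depended on the score, as given below. The unweighted day-3 difference turned when members within 500 bp of a peak of the rule's lists were moved to the others, with 17.9% for the day-3-restricted peaks and 18.5% for the others.

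The gap at day 3 widened with the score. In group 1, 14.7% of the day-3-restricted peaks (14.1 to 15.2) and 12.9% of the other peaks without iPS 5hmC (12.0 to 13.9) lay on day-3 5hmC. In group 3 the shares were 21.3% (20.4 to 22.3) and 15.5% (14.7 to 16.2), and in group 4 they were 34.2% (32.5 to 36.1) and 18.7% (17.8 to 19.5). In group 5, 282 of 453 day-3-restricted peaks, or 62.3% (57.7 to 66.6), were on day-3 5hmC, against 32.2% of the others (30.9 to 33.6). Those others that were also in fibroblast 5mC were at 14.2% in group 1 (13.0 to 15.4), which overlaps the interval of the day-3-restricted peaks. They were at 18.9% in group 4 and at 32.2% in group 5. Within group 5 the others still had the higher median score, 305.6 against 277.12 for the day-3-restricted peaks, and median widths were 1307 bp for the day-3-restricted peaks and 1251 bp for the others. Among the best-scoring 5mC peaks restricted to day 3, most thus lay where both marks were listed at that stage. Peaks with iPS 5hmC that were likewise in no other 5mC list were at 64.7% in group 5 (60.4 to 68.8), which overlaps the interval of the day-3-restricted peaks, and at 30.8% in group 1 (29.8 to 31.9), which does not.

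For fibroblast 5hmC the order of the shares turned with the score. In group 1, 3.53% of the day-3-restricted peaks (3.26 to 3.83) and 5.38% of the other peaks without iPS 5hmC (4.76 to 6.07) lay on it. In group 4 it was met by 158 of the 2698 day-3-restricted peaks (5.03% to 6.81%) and by 503 of the 8388 others (5.51% to 6.53%), with intervals that overlap. In group 5, 51 of the 453 day-3-restricted peaks, or 11.3% (8.67 to 14.5), lay on fibroblast 5hmC, against 5.85% of the others (5.20 to 6.57). Over all peaks with a score of at least 100, the shares were 5.78% and 5.85%.

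**Figure D2:**
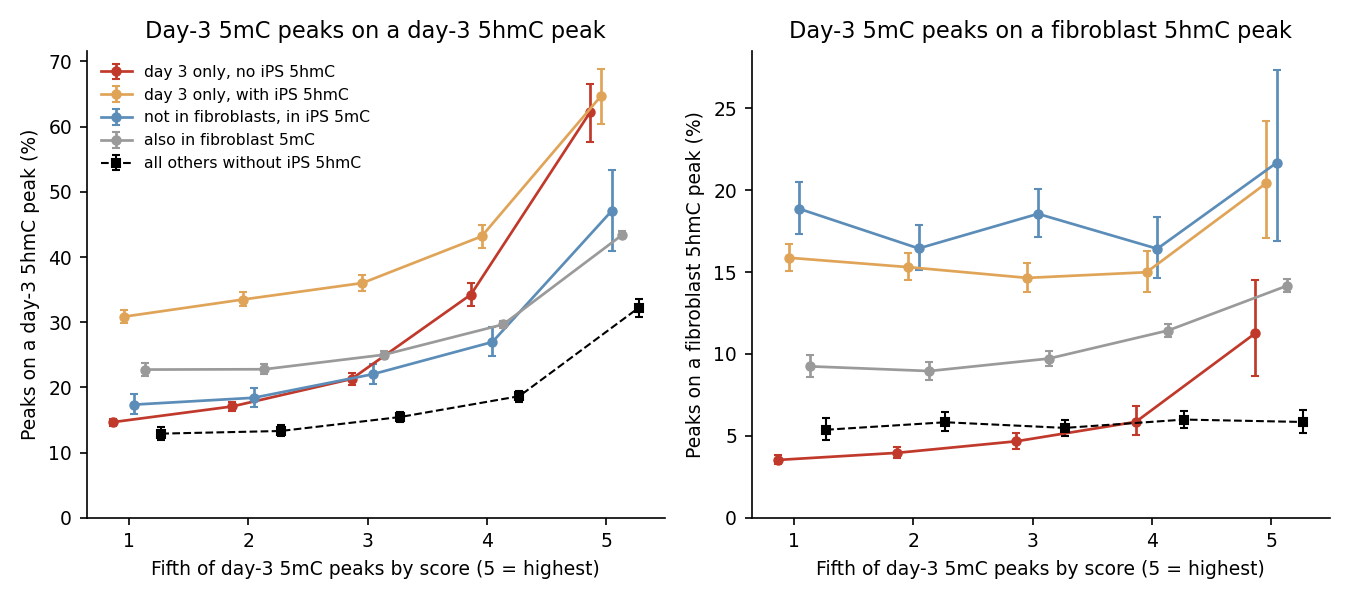
Share of day-3 5mC peaks (%) on a day-3 5hmC peak (left) and on a fibroblast 5hmC peak (right) in 5 equal groups by score, for 4 classes and, as black squares, all other peaks without iPS 5hmC; bars are 95% Wilson intervals for counting error. On day-3 5hmC, the day-3-restricted class in red stands at 14.7% in group 1 and 62.3% in group 5.

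Where a day-3-restricted peak lay on day-3 5hmC, most of its bases were usually covered. The reverse share, of the 5hmC peak covered by 5mC, was not computed. A median of 90.7% of the day-3-restricted peak was covered by 5hmC (quartiles 69.0% and 100%), and 2369 of the 7171 peaks, 33.0%, were covered in full. Members on day-3 5hmC had a median score of 77.15 and a median width of 820 bp, against 68.32 and 740 bp for the 31451 members off it. A score of at least 100 was reached by 30.3% of members on day-3 5hmC (29.2 to 31.3) and by 16.7% of members off it (16.3 to 17.1). This direction was not particular to members. Of all day-3 5mC peaks, 20.4% in group 1 and 44.0% in group 5 lay on day-3 5hmC. The day-3 5hmC peaks that touched members had a median width of 1003 bp, wider than the members. The covered share was not computed for other day-3 5mC peaks.

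Seen from the 5hmC side, 7190 day-3 5hmC peaks touched a day-3-restricted 5mC peak, or 6.19% of the day-3 5hmC list. These 5hmC peaks were about as strong as the 39715 that touched other day-3 5mC peaks, with median scores of 139.45 and 141.74 and median widths of 1003 and 1008 bp. The 69182 day-3 5hmC peaks away from any day-3 5mC peak had a median score of 104.44. Of the 7190, 693 (9.64%) met a fibroblast 5hmC peak, against 22.8% of those on other day-3 5mC peaks and 8.12% of those on none. An iPS 5hmC peak was met by 10.4% of the 7190, by 84.7% of those on other day-3 5mC peaks and by 31.3% of the 5hmC peaks away from day-3 5mC. The low share of the 7190 on iPS 5hmC follows in part from the rule. A 5hmC peak on a member can reach iPS 5hmC solely with bases outside that member. The rule bears on the fibroblast 5hmC share too, because 63.7% of fibroblast 5hmC peaks met an iPS 5hmC peak. How far it lowers that share was not tested.

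Around the centres of the day-3-restricted peaks, day-3 5hmC was densest at the centre and the lists used by the rule were depleted. Day-3 5hmC covered 15.7% of the centres, 9.06% of positions 1 kb away and 8.88% of positions 10 kb away. For the other day-3 5mC peaks these values were 25.7%, 12.7% and 12.2%. Fibroblast 5hmC covered 3.45% of the centres and 2.19% of positions 10 kb away, against 9.95% and 2.86% for the others. The choice bears on these 5hmC differences too, because iPS 5hmC covered 69.4% of the centres of the others. No profile was computed for the other peaks without iPS 5hmC. The lack of iPS 5hmC, fibroblast 5mC and iPS 5mC at the centre is set by the rule. At 10 kb, these 3 lists covered 12.8%, 8.10% and 4.22% of positions beside the day-3-restricted peaks, against 20.7%, 12.9% and 7.08% beside the others. The same 3 lists made the choice, so whether the lower cover at 10 kb is more than its effect was not tested.

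**Figure D3:**
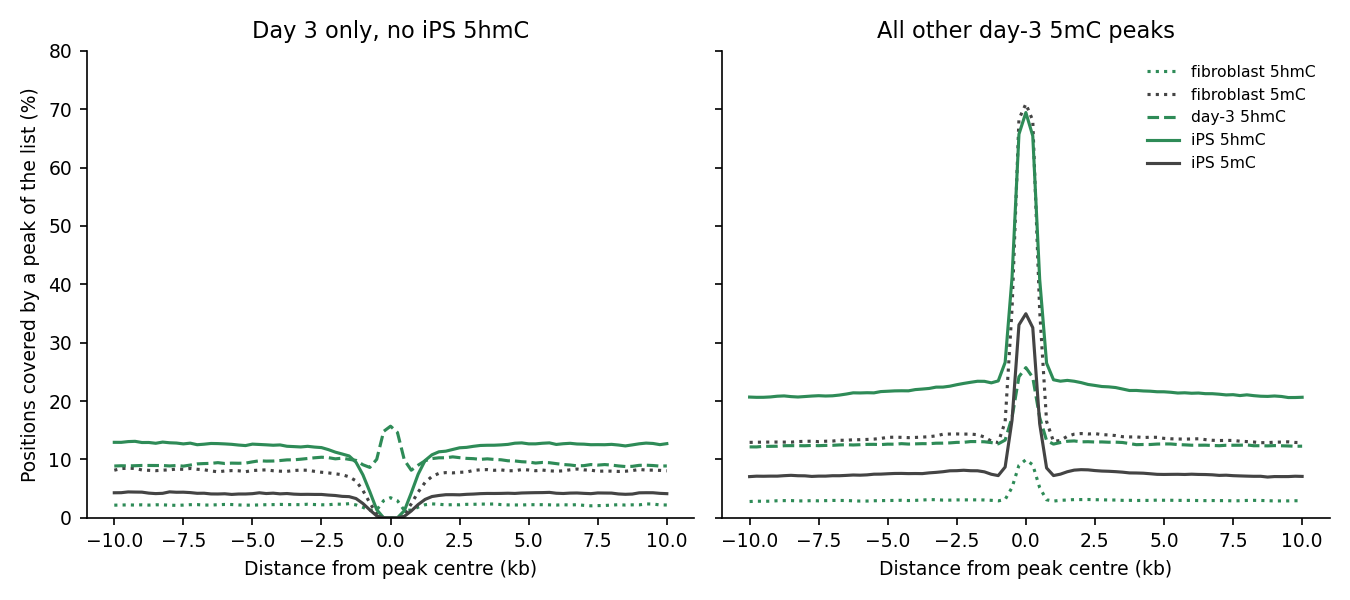
Share of positions (%) covered by a peak of each of the 5 other lists against the distance from the peak centre (kb), for day-3-restricted peaks (left) and all other day-3 5mC peaks (right). Day-3 5hmC, the dashed line, peaks at 15.7% on the left, and the dip of fibroblast 5mC, iPS 5hmC and iPS 5mC there is set by the rule.

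The 10 highest-scoring members show both marks at day 3 in single regions. The highest was on chromosome 7 from 20212184 to 20214757, 2574 bp wide, with a 5mC score of 1136.53 and a day-3 5hmC peak scoring 609.7 over 2179 of its bases. It had no fibroblast 5hmC peak, and the nearest peak of the 3 lists of the rule was 3527 bp away. The next, on chromosome 2 from 32985104 to 32987446, scored 951.32 for day-3 5mC and 775.57 for day-3 5hmC, and it already held a fibroblast 5hmC peak scoring 116.01. On chromosome 10, the region from 79444184 to 79446891 scored 744.28 for 5mC and 802.3 for 5hmC at day 3, with no fibroblast 5hmC.

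A further region with both marks was on chromosome 6 from 124867880 to 124870317. It scored 731.73 for day-3 5mC, and the day-3 5hmC peak that covered all of its 2438 bp scored 1713.18, the highest 5hmC score among these 10. A fibroblast 5hmC peak there scored 68.67. Of the 10 regions, 9 lay on day-3 5hmC and 2 of them also on fibroblast 5hmC. The exception, on chromosome 19 from 6079660 to 6083088, was the widest member at 3429 bp, scored 660.87 and was more than 5 kb from any peak of another list.

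The other 5 of these 10 were on chromosome 10 from 117230068 to 117231900, on chromosome 18 from 35263176 to 35264518, on chromosome 7 from 29133371 to 29135898, on chromosome 4 from 141346875 to 141348693 and on chromosome 5 from 140212497 to 140215060. Their 5mC scores ran from 608.07 to 726.77. Their 5hmC scores at day 3 ran from 63.73 on chromosome 4 to 572.39 on chromosome 10. By score, the next member with 5hmC in both day-3 cells and fibroblasts, on chromosome 8 from 73183398 to 73185802, scored 572.2 for day-3 5mC, 304.53 for day-3 5hmC and 75.14 for fibroblast 5hmC. The members next in width, on chromosome 17 from 24353872 to 24357179 and on chromosome 10 from 79723565 to 79726666, were 3308 and 3102 bp wide and also on day-3 5hmC. Of the 100 highest-scoring members, which scored at least 344.77, 75 lay on day-3 5hmC and 18 on fibroblast 5hmC. Among all day-3 5mC peaks of group 5, with scores of 227.65 and over, the shares were 44.0% and 14.3%. No share was computed for all peaks scoring as high as these 10 or 100 members.

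At the other extreme, 4237 members, or 10.97%, lay more than 10 kb from a peak of each of the other 5 lists, with a median score of 66.26 and a median width of 684 bp. The best-scoring of them, on chromosome 3 from 65196949 to 65199387, was 2439 bp wide and scored 370.09, with the nearest peak of another list 14484 bp away in fibroblast 5hmC. The second, on chromosome X from 102317412 to 102319019, scored 289.64. The nearest peak of another list was 27527 bp away in day-3 5hmC, and the nearest fibroblast 5mC peak was 1096556 bp away. The third, on chromosome 6 from 8080007 to 8081056, scored 285.01 and was 33976 bp from the nearest other peak.

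Chromosome X was sparse in day-3 5mC, and a larger part of it was restricted to day 3 than on any autosome. Of its 605 day-3 5mC peaks, 335 were day-3-restricted, or 55.4% (51.4 to 59.3), while single autosomes ranged from 20.7% on chromosome 5 to 26.2% on chromosome 14. X thus held 0.867% of the day-3-restricted peaks (0.780 to 0.965), against 0.365% of all day-3 5mC peaks. In peaks per Mb, X had 2.08 day-3-restricted peaks against 15.9 on the autosomes, 0.131 times as many, and for the other day-3 5mC peaks it had 0.0318 times the autosomal number. The lists of the rule were themselves sparse on X, with 243 fibroblast 5mC, 422 iPS 5hmC and 108 iPS 5mC peaks, which leaves fewer there to meet. The share was higher on X than on the autosomes in all 5 groups of scores. In group 1, 83.8% of X peaks (77.3 to 88.7) and 48.8% of autosomal peaks were day-3-restricted. In group 4 the shares were 32.6% (23.6 to 43.02) and 8.07%.

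In score and 5hmC the X members were close to the autosomal ones. Their median score was 71.92, against 69.60 on the autosomes, and 18.2% of them (14.4 to 22.7) lay on day-3 5hmC, against 18.6% on the autosomes. Fibroblast 5hmC was met by 13 of the 335, or 3.88% (2.28 to 6.53), against 4.13% on the autosomes. The X peaks that were not day-3-restricted had fibroblast 5hmC in 24.8% of cases (20.04 to 30.3), against 12.8% (12.6 to 12.9) of such peaks on the autosomes. Both values include peaks on iPS 5hmC. Chromosome Y held 5 members among 50 day-3 5mC peaks, and the 2 mitochondrial peaks were not members.

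**Figure D4:**
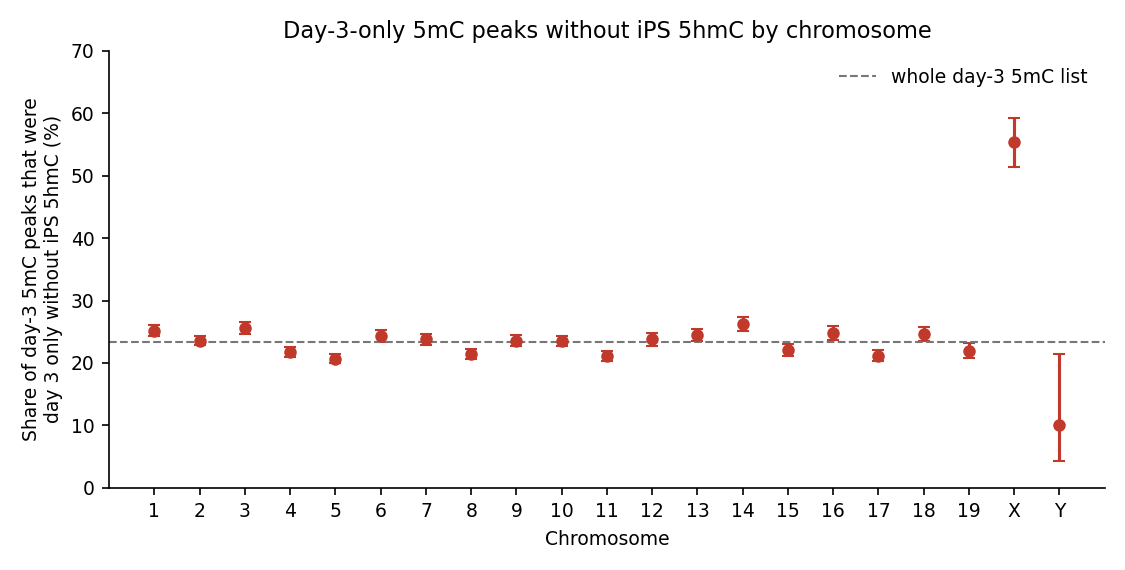
Share of the day-3 5mC peaks of each chromosome that were day-3-restricted (%), with 95% Wilson intervals for counting error; the dashed line marks the 23.3% of the whole list. Chromosome X stands at 55.4% and the autosomes lie between 20.7% and 26.2%.

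Among the autosomes the highest shares were on chromosomes with few day-3 5mC peaks and the lowest on crowded ones. Chromosomes 14, 3 and 1, with 51.2, 51.01 and 53.3 day-3 5mC peaks per Mb, had the highest shares at 26.2%, 25.6% and 25.2%. Chromosomes 5, 11 and 17, with 82.9, 94.8 and 84.2 peaks per Mb, had the lowest at 20.7%, 21.1% and 21.1%. Along the autosomes, each divided into 10 equal stretches from its first to its last listed peak, 27.4% (26.5 to 28.2) of the day-3 5mC peaks were day-3-restricted in the stretch at the low-coordinate end, which is the centromeric end of mouse chromosomes. In the last stretch, at the telomere, the share was 18.2% (17.8 to 18.7). The telomeric stretch nevertheless held more members, 5197 against 2871, because it held 28481 day-3 5mC peaks against 10485. The share did not fall steadily between the ends, with 22.8% in stretch 5 and 26.1% in stretch 6. A sparse chromosome or stretch can leave fewer peaks of the rule's lists to meet. How far this sets these orders was not tested.

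In windows of 100 kb, too, the share was highest where 5mC peaks were few. Windows with no fibroblast 5mC peak contained 5558 day-3 5mC peaks, of which 4336, or 78.0% (76.9 to 79.1), were day-3-restricted. The share was 35.3% in windows with 1 to 4 fibroblast 5mC peaks, 23.4% with 5 to 9, 16.2% with 10 to 19 and 9.79% with 20 or more. A window with few fibroblast 5mC peaks leaves fewer to meet, so part of this order is set by the rule. The number of members per window went the other way, at 0.712, 1.45, 2.59, 3.04 and 2.78. The share of members on day-3 5hmC was 9.36% in windows without fibroblast 5mC and 15.5%, 19.3%, 23.4% and 28.2% in the next classes. All day-3 5mC peaks showed the same order, at 13.0%, 21.0%, 27.3%, 32.4% and 39.6%, and so did the other peaks without iPS 5hmC, at 8.62%, 13.3%, 17.1%, 20.3% and 24.0%. The order was therefore not particular to the members.

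Day-3-restricted peaks were spread over most windows with day-3 5mC, and whether they gather in domains was not tested. Members occurred in 15992 of the 19228 windows with a day-3 5mC peak, or 83.2%, and in 37.3% of these 15992 windows a single member was present. There were 1714 windows with 5 or more members, which held 10097 of them, or 26.1%, and 28 windows with 10 or more. The median distance from a member to the next nearest member was 13874 bp. On the autosomes, the day-3 5mC peak that followed a member was itself a member in 32.1% of cases (31.6 to 32.6), against 20.5% (20.3 to 20.7) after other peaks. Members were also more widely spaced from the next peak, with a median of 6038 bp against 3272 bp. The longest uninterrupted run was 16 members on chromosome 14 from 88239342 to 91329422, a stretch of 3090 kb that held 10 fibroblast 5hmC, 2 fibroblast 5mC, 10 day-3 5hmC, 6 iPS 5hmC and 2 iPS 5mC peaks.

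The 5 windows richest in members were on chromosome 7 from 52700001 to 52800000, with 15 members, on chromosome 5 from 137400001 to 137500000, with 14, and on chromosome 11 from 99200001 to 99300000, on chromosome 5 from 97200001 to 97300000 and on chromosome 5 from 136600001 to 136700000, with 12 each. They were not free of the other marks. The window on chromosome 7 held 2 fibroblast 5hmC, 13 fibroblast 5mC, 14 day-3 5hmC, 34 day-3 5mC, 15 iPS 5hmC and 2 iPS 5mC peaks, and 6 of its 15 members lay on day-3 5hmC. The members there scored from 50.33 to 269.2, with a median of 88.49. The window on chromosome 11 differed in that it held 1 day-3 5hmC peak and none of its 12 members lay on it.

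**Figure D5:**
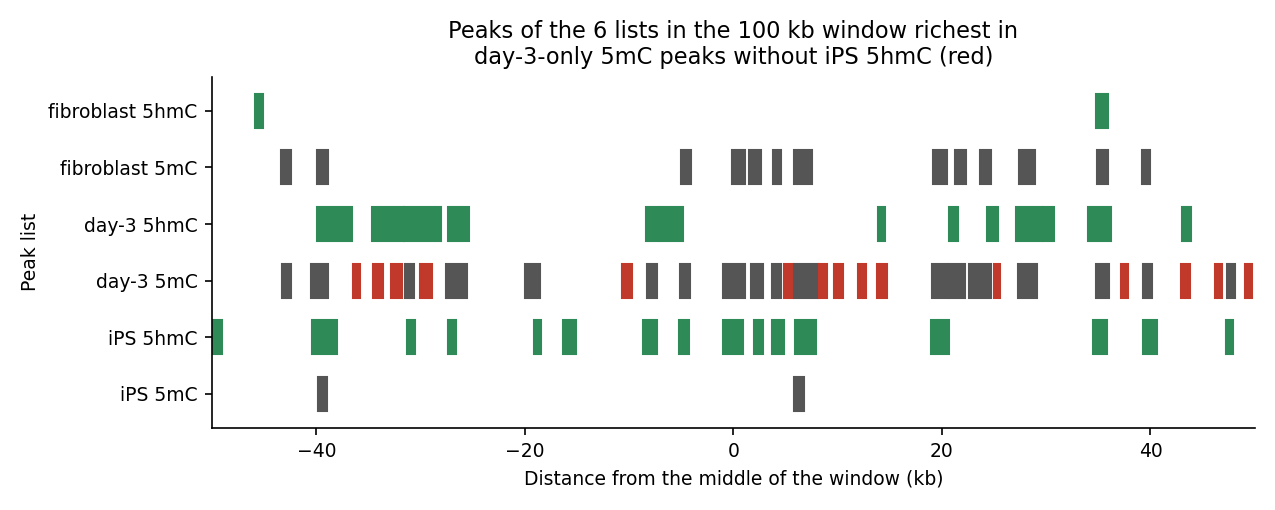
Peaks of the 6 lists (rows) in the 100 kb window on chromosome 7 with 15 day-3-restricted peaks, by distance from the middle of the window (kb). Red blocks are the day-3-restricted peaks, grey blocks other 5mC peaks and green blocks 5hmC peaks; the red blocks lie between the other 5mC peaks of the row.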

How the data were processed

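Peak lists from antibody capture of 5mC or 5hmC were used, 1 library for each of 3 stages and 2 marks. Tools listed in the submitters' processing notes are MACS 1.4.1, Bowtie 0.12.7 and CASAVA 1.8, with build mm9. The score of each peak is the authors' deposited value. It was read as 10 times the negative log10 of a p-value, as this MACS version is known to write, although the files do not state it, and peaks were ranked by it within a list. A threshold of 100 across lists was an alternative alone. No source used here gives the caller settings, the read numbers or an input library. Depth is therefore unknown, and a deeper library lists more weak peaks.

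Overlap meant at least 1 shared bp. Shares carry 95% Wilson intervals. Windows were 100 kb. Named regions followed a rule by score, width, distance and window count. The members and the rule were chosen with earlier results of these data known. Python 3.11.15, numpy 2.4.6, pandas 2.3.3, scipy 1.17.1, matplotlib 3.10.9 and bedtools 2.31.1 were used. Interval code was tested on simulated data (100000 peaks, 0 wrong) and gave the bedtools count for 5 of 5 lists. No mm9 sequence or annotation was used here, so regions were not assigned to genes, CpG content was not computed and no sequence is shown.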

Additional observations from a re-analysis of the deposited data

How the results depend on the processing

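No paired analysis was possible because each stage and mark had 1 library, and no library could be left out in turn. The number of members was 38622, or 23.3% of the day-3 5mC list. Under 6 of the 8 alternatives the rule gave between 27271 and 42093 peaks, with shares of 16.7% to 30.6%, but not always the same peaks. The highest share and lowest number among these 6 came with scores of at least 100 in all lists, which left 89202 day-3 5mC peaks. In the full lists 7428 members scored that high, so most of the 27271 were not members there. With day-3 5mC scores of at least 100 alone, the number was 7428, or 8.33% of such peaks. With the 42301 best peaks by score from every list it was 6106, or 14.4%. Most of these 6106 were not members in the full lists either. For the shares that follow, members are the peaks chosen under the setting named. The share of members on day-3 5hmC was 18.6%. It was 17.1% with scores of at least 100 in all lists, 29.2% with that threshold for day-3 5mC alone, 16.1% by the peak centre, 16.2% with 50% of the peak shared, 17.9% and 17.4% with no peak of the rule's lists within 500 or 1000 bp, and 23.4% with equal numbers of peaks. Only under the last did it exceed the share of all day-3 5mC peaks, at 22.4%. The other peaks without iPS 5hmC, the closer comparison, had 17.8%. In the same order of settings they had 16.8%, 21.1%, 15.0%, 14.8%, 18.5%, 18.7% and 15.3%. The share of members was below theirs only under the 500 and 1000 bp settings. The share on fibroblast 5hmC was 4.13%. In the order of these settings it was 2.50%, 5.78%, 3.49%, 3.46%, 4.02%, 4.02% and 10.4%, below the share of all day-3 5mC peaks in each. The X share of members was 0.867%. It was 0.620% with scores of at least 100 in all lists, 1.13% with that threshold for day-3 5mC alone, and 0.976% and 1.11% without peaks of the rule's lists within 500 or 1000 bp. It was above that of all day-3 5mC peaks under each setting that kept X, and has no value for autosomes alone. Windows of 1 Mb with 50 or more members numbered 5. Measured between centres, median distances were 15389 bp to fibroblast 5hmC, 6596 bp to fibroblast 5mC, 4825 bp to day-3 5hmC, 4392 bp to iPS 5hmC and 11950 bp to iPS 5mC. The cause of these shifts was not tested. The unknown depth limits all absences, and 30.4% of the members scored under 60 where the lowest score of the list was 50.01.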
